A study of Homo sapiens with 12 samples.

Results

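N6-methyladenosine (m6A) is the most common internal mark of messenger RNA, and 10 genes that write, read or erase it were followed at the nuclear lamina of H9 human embryonic stem cells, out of 19974 protein-coding genes in the annotation. The set comprised the writers METTL3, METTL14 and WTAP, the YTH-domain readers YTHDC1, YTHDC2, YTHDF1, YTHDF2 and YTHDF3, and the erasers FTO and ALKBH5. The set was chosen by pathway and by measured cover, since the body of YTHDC1 lies in lamina-associated domains (LADs) of primed cells and not of naive cells. Covered share, distance to the nearest LAD and LAD share of the surrounding 1 Mb are therefore given as descriptions of these genes, without a test. A gene counted as in LADs when at least 50% of its body, from the first to the last annotated base, was covered.

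In the m6A pathway a methyltransferase complex in the nucleus marks adenines of nascent transcripts. METTL3 is its catalytic subunit, METTL14 holds the RNA substrate and WTAP anchors the pair in nuclear speckles. Proteins with a YTH domain bind the mark and steer splicing, export, translation and decay, and the dioxygenases FTO and ALKBH5 can take it off again. In mouse embryonic stem cells YTHDC1, the nuclear reader, is known for a role in silencing LINE1 and other retrotransposons, and the series title names LINE1.

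H9 is an established embryonic stem cell line, and the labels give no genetic change and no treatment for any library. Naive cells were grown in RSeT medium and primed cells in mTeSR medium. Lamina contact was mapped by pA-DamID, in which an antibody to lamin B1 (LMNB1) brings protein A fused to the Dam methylase to the lamina, Dam methylates GATC sites there, and the marked DNA is sequenced. For each state the labels describe 3 LMNB1 libraries and 3 Dam-only libraries, made with untethered Dam as a control for open DNA. The values used here were 1 list of LAD intervals per state, taken to stand for all libraries of that state, with 9178 naive and 5671 primed intervals made of 10 kb windows. The labels point to lists called final, whereas those used here are called simple, and what sets these apart is not stated, so all values hold for the lists used. They carry no signal, depth or replicate values, so a difference between the states has no replicate check, and a window that yields few reads, for want of GATC sites or of mappable sequence, looks the same as one away from the lamina. The labels do not tell whether replicate libraries came from separate cultures.

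Start sites of YTHDC1 and YTHDC2 lay in LADs of opposite states, and their promoters are printed as points inside the longer stretches over which the maps of these genes differ. That of METTL14 is shown beside them as a start site that was outside LADs in both states while both flanks held LADs. All are RefSeq sequences of GRCh38.p14, from 250 bases before to 50 after the start site, written 5′ to 3′ on the strand of the gene. Capitals mark the Dam site GATC, the CCAAT box, the GC box letters GGGCGG, the TATA box letters TATAAA and the cyclic AMP response element TGACGTCA, each searched on both strands, so that a match on the other strand shows as its reverse complement. The last of these was added to the search after the sequences had been read. The YTHDC1 promoter is chr4:68350041-68350340 on the minus strand, the YTHDC2 promoter chr5:113513444-113513743 on the plus strand and the METTL14 promoter chr4:118685142-118685441 on the plus strand.
YTHDC1: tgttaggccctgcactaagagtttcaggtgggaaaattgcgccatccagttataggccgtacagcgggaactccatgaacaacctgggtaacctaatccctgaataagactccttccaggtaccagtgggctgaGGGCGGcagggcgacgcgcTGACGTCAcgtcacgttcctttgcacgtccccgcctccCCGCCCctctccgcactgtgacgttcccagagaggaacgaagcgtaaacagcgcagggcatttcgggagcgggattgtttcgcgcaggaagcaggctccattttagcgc
YTHDC2: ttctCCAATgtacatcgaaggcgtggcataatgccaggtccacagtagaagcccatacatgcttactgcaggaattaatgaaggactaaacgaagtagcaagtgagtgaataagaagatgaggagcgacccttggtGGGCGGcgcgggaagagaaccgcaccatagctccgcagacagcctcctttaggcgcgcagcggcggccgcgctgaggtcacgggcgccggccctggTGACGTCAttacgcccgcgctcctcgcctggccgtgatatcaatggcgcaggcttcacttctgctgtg
METTL14: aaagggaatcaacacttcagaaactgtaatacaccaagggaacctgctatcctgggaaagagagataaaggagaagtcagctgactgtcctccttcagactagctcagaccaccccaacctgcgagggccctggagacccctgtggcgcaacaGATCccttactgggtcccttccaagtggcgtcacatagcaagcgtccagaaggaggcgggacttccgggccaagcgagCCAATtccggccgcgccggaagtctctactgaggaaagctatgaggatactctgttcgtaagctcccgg

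The YTHDC1 promoter was covered at 0% by naive LADs and at 100% by primed LADs, whereas that of YTHDC2 was covered at 100% by naive and at 0% by primed LADs. The METTL14 promoter was at 0% in both. Of 15812 coding genes with a start site in the RefSeq promoter table, 3.11% had it in naive LADs only and 2.73% in primed LADs only. Of the 9 m6A genes matched in that table, YTHDC2 was the one in the first class and YTHDC1 the one in the second. The place of YTHDC1 follows from the choice of the set. YTHDF3 was not matched. Neither the YTHDC1 nor the YTHDC2 promoter held a GATC, the site that Dam methylates, and the METTL14 promoter held 1, starting 97 bases before the start site. A GATC occurred in 39.94% of the 22132 promoters of coding genes in the table (chromosome 8 left out), so its lack in a window of 300 bases is the more common case, and the 10 kb windows behind a LAD call reach far beyond it. GGGCGG occurred at 2 places in the YTHDC1 promoter and 1 in that of YTHDC2, and in 56.28% of all promoters. CCAAT was found once each in the YTHDC2 and METTL14 promoters (34.64% of all), and TATAAA in none of the 3 (9.46% of all). TGACGTCA was found in the YTHDC1 promoter, 97 bases before the start site, and in the YTHDC2 promoter, 18 bases before it. Of all promoters 2.26% held it, and no promoter of the other matched m6A genes did. TGACGTCA was searched for because it had been read in these sequences, so its presence in them is no separate result. These matches are letters in a window and were not linked to any factor or to lamina contact.

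At least 1 base was in naive LADs at 1 of 5 readers, 0 of 3 writers and 1 of 2 erasers, and in primed LADs at 3 readers, 0 writers and 0 erasers. The median LAD share of the surrounding 1 Mb was 81.0% in naive and 54.4% in primed over the 5 readers, and 4% and 0% over the 3 writers and likewise over the 2 erasers. The reader medians are values of different genes, YTHDC1 in naive and YTHDC2 in primed, and show no common shift. Among the readers YTHDC2 alone had the higher share in naive. YTHDC1 and YTHDF3 had the higher share in primed, and YTHDF1 and YTHDF2 were at 0% in both. No m6A gene was placed in naive LADs (18.9% of all coding genes were), 1 of the 10 was placed in primed LADs (17.3% of all), and none in LADs of both states (15.4% of all). The single gene was YTHDC1, so the set fell in primed LADs only at 1 of 10, beside 1.89% of all coding genes, a count that the choice of the set fixes. In primed cells YTHDF3 came next, with 32.2% of its body covered, and was the nearest gene short of the 50% mark. The genes touched were YTHDC2 and FTO in naive (23.8% of all coding genes were touched) and YTHDC1, YTHDC2 and YTHDF3 in primed (20.8% of all). The other 6, METTL3, METTL14, WTAP, YTHDF1, YTHDF2 and ALKBH5, were at 0% in both states, as were 74.4% of all coding genes.

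**Figure D1:**
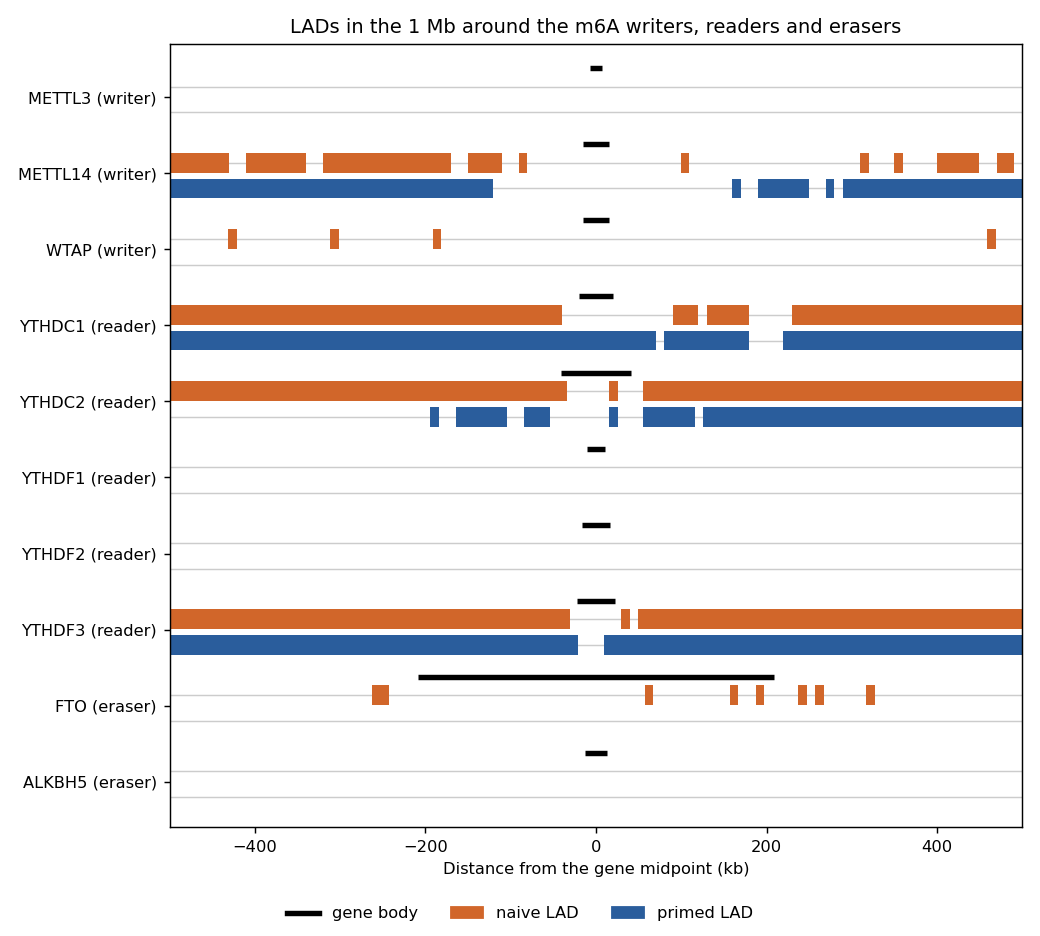
LADs in the 1 Mb around each gene, with distance from the gene midpoint in kb on the x axis, naive LADs (orange) above primed LADs (blue) and the gene body as a black bar. YTHDC1, YTHDC2, YTHDF3 and METTL14 sit among LADs in both states, FTO and WTAP have scattered naive windows, and METTL3, YTHDF1, YTHDF2 and ALKBH5 have none.

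YTHDC1 (gene 91746, chromosome 4, 68310387 to 68350090, minus strand) spans 39.7 kb and touches 5 windows of 10 kb, of which 0 were called in naive cells and 5 in primed cells. In naive cells it stood in a LAD-free gap of 130 kb, with LADs 20.4 kb beyond its low-coordinate end, where its 3′ end lies, and 69.9 kb beyond its start. The LAD on the low side was 640 kb long and that on the high side 30 kb. In primed cells the whole gene was inside 1 LAD of 1730 kb (66670001 to 68400000), with 49.9 kb between its start site and the LAD's high edge. Beyond that edge a single uncalled window parted it from the next primed LAD, of 100 kb, so that the edge is a break of 10 kb and not the end of primed lamina contact. Full cover in primed with none in naive was seen for 116 of the 19974 coding genes (0.581%), and the reverse for 163 (0.816%).

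The primed-only stretch over YTHDC1 ran for 110 kb, from 68290001 to 68400000. Among 5044 primed-only stretches of the genome 18 were longer, and 27 were at least as long, this one included. YTHDC1 was the only protein-coding gene it touched. The other annotated genes in it, none of them protein-coding, were LOC100422188, APOOP4, MT2P1 and LOC124900917.

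Most neighbours of YTHDC1 lay in LADs of both states, among them the nearest coding gene on either side. On the low side TMPRSS11D, TMPRSS11A, TMPRSS11F and TMPRSS11B, which encode serine proteases anchored in the membrane of epithelial cells, each had full cover in both states. TMPRSS11B, the nearest, is 64.7 kb away. On the high side TMPRSS11E, of the same family and 97.4 kb away, had 80.1% in naive LADs and 100% in primed LADs. UGT2B15 and UGT2B10, which encode glucuronosyltransferases of steroid and drug clearance, were covered at 100% in both. UGT2B17, of that family, had 41.7% in naive LADs and 67.2% in primed LADs. The UGT2B genes are close copies of each other, and how multi-mapping reads were treated is not stated in the labels, which leaves the calls at these genes uncertain. Of the 9 coding genes within 500 kb of the YTHDC1 midpoint, YTHDC1 alone was at 0% in either state.

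**Figure D2:**
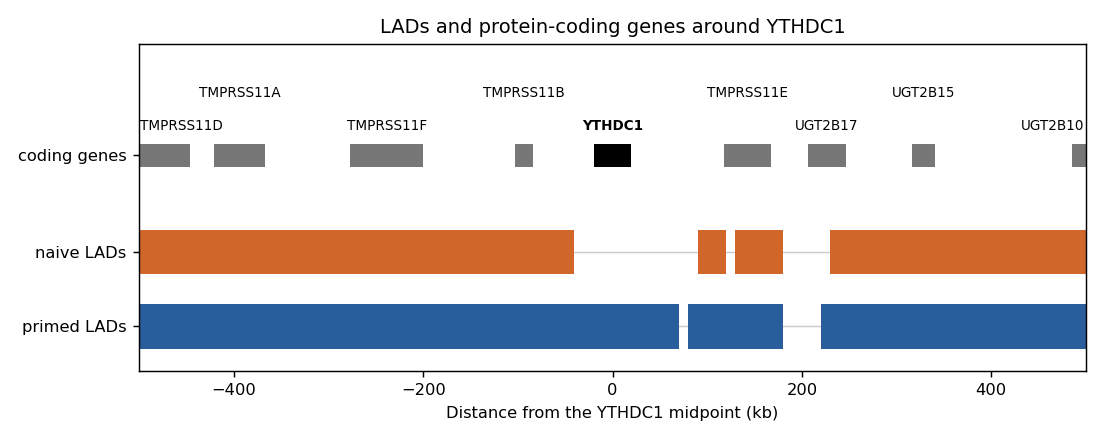
Protein-coding genes (top), naive LADs (orange) and primed LADs (blue) within 500 kb of the YTHDC1 midpoint, with distance in kb on the x axis. The naive gap of 130 kb holds YTHDC1 as its only coding gene, while the primed LAD from the left runs over the gene and is parted by a single 10 kb window from the next one on its right.

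In the 1 Mb around YTHDC1, LADs held 81.0% in naive cells and 95% in primed cells, which is -14.0 percentage points as naive minus primed. Of these, -11.0 points were the stretch over YTHDC1 itself and -3 points lay outside it, so the neighbourhood is no separate measure of the gene's own difference. LADs held 72.3% of chromosome 4 as a whole in naive cells and 73.2% in primed cells. The 500 kb on the low side were at 95.9% in naive and 100% in primed, and the 500 kb on the high side at 74.0% and 90%. The stretch made up all -4.08 points of the low-side difference and -9.98 of the -15.98 points on the high side. A gene at 0% whose surrounding 1 Mb was at least 80% in LADs was uncommon, at 139 of all coding genes in naive (0.696%) and 95 in primed (0.476%). Of the m6A genes, YTHDC1 and YTHDF3 met this in naive and none in primed. The lack of naive cover at YTHDC1 is part of what the set was chosen for.

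YTHDF3, a cytoplasmic reader (gene 253943, chromosome 8, 63168553 to 63212788), had a similar site in naive cells. Naive LADs covered 0% of its body of 44.2 kb and primed LADs 32.2%, with 0 and 3 of its 6 windows called. The naive gap was 60 kb, between a LAD of 1440 kb that ended 8.55 kb away and a single window 7.21 kb away, which was followed by a LAD of 1130 kb. In primed cells both flanking LADs, of 1450 and 1170 kb, reached into the gene, over 1.45 kb at its low-coordinate end and 12.8 kb at the other. Both lists thus had a break in LADs at YTHDF3, and the primed break, of 3 windows, was the narrower. The surrounding 1 Mb was at 93.0% in naive and 97.0% in primed. TTPA, the gene of the vitamin E transfer protein and the nearest coding gene on the low side, was covered at 100% in both states.

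YTHDC2 (gene 64848, chromosome 5, 113513694 to 113595284, plus strand), a helicase that is needed for meiosis in mouse germ cells, went the other way. Naive LADs covered 19.99% of its body of 81.6 kb and primed LADs 12.3%, with 2 and 1 of its 9 windows called. The window that both states called was the same, 113570001 to 113580000. What differed was the 5′ side. A naive LAD of 480 kb (113040001 to 113520000) ran over the start site and ended 6.31 kb inside the gene, whereas the nearest primed LAD upstream was 30 kb long and ended 13.7 kb before the gene. The naive-only stretch over the start site was 20 kb long, and 3124 of 7994 naive-only stretches of the genome were at least as long. The 500 kb upstream were at 94.7% in naive LADs and 20% in primed LADs, so naive was 74.7 points higher. Downstream the values were 97.1% in naive and 95.1% in primed, so the difference between states lay on 1 side. MCC, the coding gene next upstream, had 96.2% of its body in naive LADs and 19.0% in primed LADs. KCNN2, a potassium channel gene and the next downstream, had 95.5% and 100%.

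The 1 Mb around YTHDC2 was at 92.0% in naive LADs and 54.4% in primed LADs. The gap of 37.6 points was higher than that of 97.2% of coding genes. A difference of at least 20 points with naive higher was found for 6.80% of all coding genes, and with primed higher for 1.51%. Of the m6A genes, YTHDC2 was in the first class and METTL14 in the second.

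The remaining readers, YTHDF1 and YTHDF2, lay far from any LAD. YTHDF2, which sends marked transcripts to decay (gene 51441, chromosome 1, 28736624 to 28769775), was 12137 kb from the nearest naive LAD and 19370 kb from the nearest primed LAD. The naive one was a single window (16590001 to 16600000), and the LAD-free gap around it ran for 31580 kb in naive cells and 47500 kb in primed cells. YTHDF1, tied to translation of marked transcripts (gene 54915, chromosome 20, 63195429 to 63216131), was 7075 kb from the nearest naive LAD and 7005 kb from the nearest primed LAD. Each of these LADs was a single window, and no LAD lay between YTHDF1 and the chromosome end. Without LADs under 50 kb the YTHDF2 distances were 19760 kb in naive and 19520 kb in primed, so their order turned. YTHDF1, YTHDF2 and YTHDF3 encode proteins of close sequence, yet the 1 Mb around them was at 0%, 0% and 93.0% in naive and at 0%, 0% and 97.0% in primed.

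Writers were outside LADs in both states. METTL3 (gene 56339, chromosome 14, 21498138 to 21511340, minus strand) was 3148 kb from the nearest LAD in naive and 1458 kb in primed, each a single window, and 3349 kb in both states without LADs under 50 kb. WTAP (gene 9589, chromosome 6, 159726693 to 159756319) was 167 kb from the nearest LAD in naive and 1074 kb in primed. Once LADs under 50 kb were dropped, WTAP was 1654 kb (naive) and 1714 kb (primed) away. Its surrounding 1 Mb held 4 single windows in naive, or 4% of its length, and 0% in primed.

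METTL14 (gene 57721, chromosome 4, 118685392 to 118715430) differed from the other writers in having LADs on both 500 kb flanks in both states. WTAP had single windows on both flanks in naive only. The gap over the gene spanned 180 kb in naive cells and 280 kb in primed cells. The nearest naive LAD was 65.4 kb away and the nearest primed LAD 105 kb. The naive one was a single window, and without LADs under 50 kb the distances were 155 kb in naive and 105 kb in primed, so their order turned. Within 1 Mb, LADs held 44.0% in naive cells and 67.0% in primed cells, or -23.0 points as naive minus primed. Naive lamina contact was in 10 pieces, of which 4 were single windows, and primed contact in 5 pieces, of which 2 were. On the low side the naive LADs nearest the gene were short, and the nearest primed LAD was 2160 kb long. The low-side 500 kb were at 70.9% in naive and 78.9% in primed, and the high-side 500 kb at 20% and 61.1%, so most of the difference was on the 3′ side of the gene. PRSS12 on the low side, a serine protease gene, had 86.3% in LADs of naive cells and 100% in those of primed cells, and SEC24D on the high side, a gene of vesicle coats, had 8.83% and 0%.

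Erasers had little lamina contact. FTO (gene 79068, chromosome 16, 53703963 to 54121941), the longest gene of the set at 418 kb, had 3 of its 43 windows called in naive, for 7.18% of its body, and 0 in primed. These 3 were single windows, starting at 53970001, 54070001 and 54100001. The surrounding 1 Mb was at 8.00% in naive and 0% in primed, and the nearest primed LAD was 1468 kb away. Without LADs under 50 kb the distances were 834 kb in naive and 4698 kb in primed. Its neighbours were RPGRIP1L, a ciliary gene (18.9% in naive and 0% in primed), and IRX3, a homeobox gene (0% in both). ALKBH5 (gene 54890, chromosome 17, 18183828 to 18209954) was 900 kb from the nearest LAD in naive and 850 kb in primed, with a LAD share of 0% in the surrounding 1 Mb of both. Both of these LADs were single windows, and without LADs under 50 kb the distances were 4884 kb in naive and 33240 kb in primed, so their order turned.

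**Figure D3:**
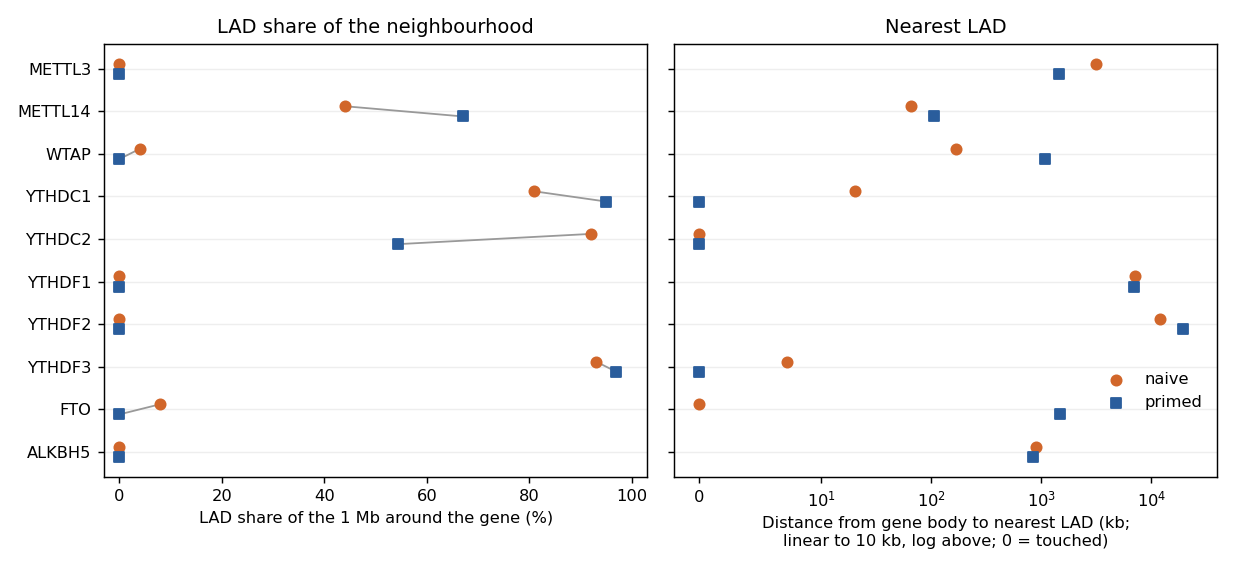
LAD share of the 1 Mb around each gene in percent (left) and distance from the gene body to the nearest LAD in kb (right; linear to 10 kb, log above, 0 where a LAD touches the gene), with naive as circles and primed as squares. The left panel parts YTHDC1, YTHDC2, YTHDF3 and METTL14, at 44.0% or more in both states, from the other 6, at 8.00% or less.

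By neighbourhood the set fell into 2 kinds. In both states at least 40% of the surrounding 1 Mb was in LADs for YTHDC1, YTHDC2, YTHDF3 and METTL14, or 4 of 10, beside 20.3% of all coding genes. YTHDC1 was chosen for its cover by primed LADs, so its primed share here is tied to the choice of the set. No LAD was found in the 1 Mb of METTL3, YTHDF1, YTHDF2 and ALKBH5 in either state, or 4 of 10, beside 49.7% of all coding genes. FTO and WTAP had LADs there in naive only, at 8.00% and 4%. The median over the 10 genes was 6% in naive and 0% in primed, and over all coding genes 0% in both.

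The m6A genes with many LADs around them had few coding genes around them. YTHDC2 and YTHDF3 each had 3 coding gene midpoints within their 1 Mb, METTL14 and FTO 5, YTHDC1 9 and WTAP 10. YTHDF2 had 14, ALKBH5 19, METTL3 21 and YTHDF1 28. Spearman's rho of this number with the LAD share was -0.925 in naive and -0.711 in primed over 10 genes, and -0.574 and -0.491 over all coding genes. Neighbouring genes share windows, so these points are not independent. Of the 4 m6A genes with 1 to 5 coding genes in their 1 Mb, FTO had the lowest LAD share, at 8.00% in naive and 0% in primed. METTL14, also of this class, was at 44.0% and 67.0%. Over the 3248 coding genes of the class the median was 79.5% in naive and 67.0% in primed, and the spread around it is not given.

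**Figure D4:**
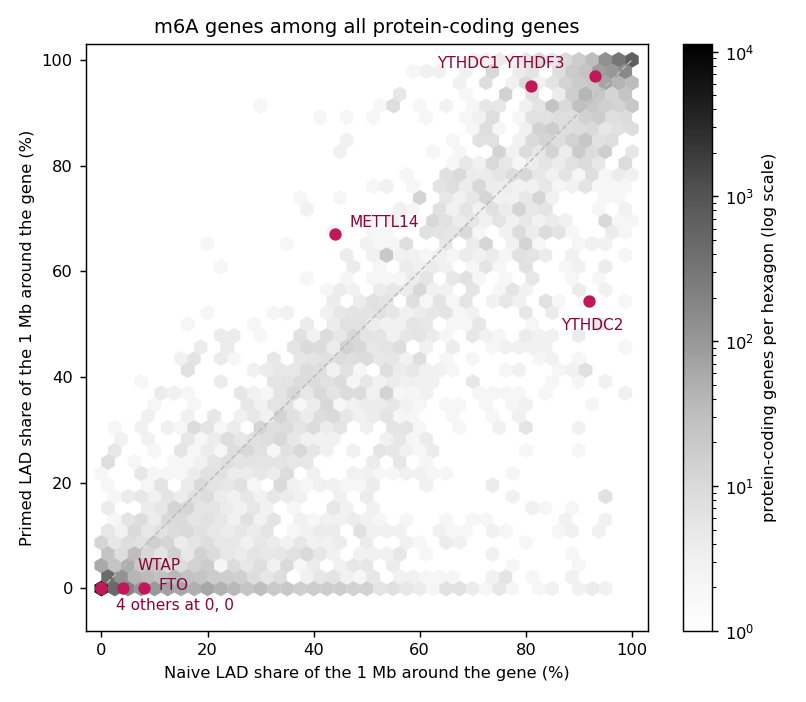
LAD share of the surrounding 1 Mb in percent for all 19974 protein-coding genes, naive on the x axis and primed on the y axis, as hexagons shaded by the number of genes on a log scale, with the 10 m6A genes as red points and equal shares as a dashed line. YTHDC2 lies well below the line (92.0% naive, 54.4% primed), METTL14 above it (44.0% naive, 67.0% primed), and METTL3, YTHDF1, YTHDF2 and ALKBH5 coincide at 0%.

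A further 38 genes tied to the m6A pathway were listed. They were 5 other writer subunits, 6 other adenosine N6 methyltransferases, 12 proposed readers, 9 nuclear partners of YTHDC1 and 6 decay or meiotic partners of YTHDF2 and YTHDC2. The counts thus cover partners as well as genes of the mark itself. Of the 38, naive LADs held 4 (10.5%) and primed LADs 2 (5.26%), beside 18.9% and 17.3% of all coding genes. At 0% in both were 31, beside 74.4% of all coding genes. FMR1, a proposed reader (X, 147911919 to 147951125; 79.4% in naive and 100% in primed), and RBM46, a germ cell partner of YTHDC2 in mice (chromosome 4; 100% in both), were in LADs of both states. Of all coding genes 15.4% were. In naive LADs only, beside 3.44% of all coding genes, were CBLL1, a ubiquitin ligase of the writer complex (chromosome 7, 107744142 to 107761667; 100% in naive and 9.51% in primed), and RBM7, of a nuclear complex that feeds RNA to the exosome (chromosome 11, 114400666 to 114410607; 93.9% and 0%). RBM7 is from the list of nuclear partners of YTHDC1. None of the 38 was in primed LADs only, beside 1.89% of all coding genes. The CBLL1 difference was 0 after joining across gaps under 50 kb, and that of RBM7 was 0 after dropping LADs under 50 kb. The other 4 writer subunits listed were at 0% in both states, as were 74.4% of all coding genes. XRN1, an RNA exonuclease, had 48.1% in naive and 0% in primed and was the listed gene closest under the 50% mark in naive. It is named after its values were seen.

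Apart from ALKBH5, the AlkB homologues held 1 gene in LADs of both states, ALKBH8, a tRNA wobble methyltransferase (100% in each; 15.4% of all coding genes were in LADs of both), and 6 of the 7 were at 0% in both (74.4% of all). Of 31 enzymes of other RNA modifications, naive LADs held 4 (12.9%, beside 18.9% of all coding genes) and primed LADs 5 (16.1%, beside 17.3%). The 4 were in LADs of both, and the fifth was TRMT10C, a subunit of mitochondrial RNase P (chromosome 3, 101561868 to 101566446), at 0% in naive and 100% in primed, 1 of 31 in primed LADs only beside 1.89% of all. Its surrounding 1 Mb, at 77.0% in naive and 94.0% in primed, was close in values to that of YTHDC1. The TRMT10C difference was 0 after joining across gaps under 100 kb.

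Outside the pathway, the primed-only coding genes most like YTHDC1 in neighbourhood, by the distance between LAD shares of the 1 Mb over the 2 states, were UGT2B17, TMEM161B, SMARCA2, OTUD4 and ACVR1. UGT2B17 is a neighbour and shares most of its 1 Mb with YTHDC1, so its distance of 0 points is not a separate case. TMEM161B (chromosome 5; 12.01% in naive and 100% in primed) was 1.00 point away, SMARCA2, which encodes an ATPase of chromatin remodelling (chromosome 9; 39.3% and 83.2%), 1.41 points, OTUD4, a deubiquitinase gene (chromosome 4; 21.3% and 65.2%), 1.98 points, and ACVR1, a BMP receptor gene (chromosome 2; 31.1% and 100%), 3.16 points. Each of these genes kept some naive LAD. YTHDC1 had none, but it was chosen for its cover, so this contrast is no separate result. Full cover in primed with none in naive was seen for 116 coding genes (0.581%).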

How the data were processed

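The data are 2 lists of LAD intervals, 1 per state, each taken from its name and the labels to stand for 3 LMNB1 and 3 Dam-only libraries of that state. The lists hold chromosome, start and end, with no score, and all edges are multiples of 10 kb. Build hg38 and the tools SICER, BWA and SAMtools 1.10 are named in the submitters' processing notes. No label or header gives settings, the order of steps or how libraries were merged, and the depth behind a window is unknown.

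Genes were placed by RefSeq coordinates on GRCh38.p14, whose primary assembly is that of hg38 (19974 protein-coding genes on the autosomes and X). All 86 listed genes matched by symbol. Coordinates are 1-based. Covered shares, gaps and the LAD share of the 1 Mb centred on the gene midpoint were computed from the interval edges. The start site was the most upstream one in the promoter table. With 1 list per state no test was made. The genes and lists were chosen with earlier results of these data known. Named genes follow a rule: all 10 m6A genes, every listed gene in LADs of exactly 1 state, up to 2 listed genes in LADs of both where no gene of the list differed, coding genes within 500 kb of YTHDC1, the nearest coding genes, and the 5 most like YTHDC1. XRN1 and TRDMT1 are named outside it, after their values were seen. As alternatives, LADs were joined across gaps under 50 or 100 kb, short LADs (under 50 or 100 kb) were dropped, or both, and further settings changed the share required and the size of the neighbourhood. As a check of the code, LADs were added to the primed list over 200 genes, and 200 of 200 were then counted as in LADs. On simulated intervals 3000 segments counted base by base gave 0 differences. Both checks concern the counting and say nothing of how reliable the LAD calls are. Computation used SciPy 1.17.1, pandas 2.3.3 and numpy 2.4.6 under Python 3.11.15, with matplotlib 3.10.9 for plots.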

Additional observations from a re-analysis of the deposited data

How the results depend on the processing

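The joins and filters could not move YTHDC1 from 0% in naive and 100% in primed, since its naive gap (130 kb) and primed LAD (1730 kb) exceed their limits, so they say nothing of the stability of that value. The number of m6A genes in LADs moved with joining. In naive it was 2 with LADs less than 100 kb apart joined and 2 with any overlap (23.8% of all coding genes), against 0 by the main rule. By the start site it was 1 of the 9 genes matched in the promoter table, YTHDF3 being left out, beside 17.8% of 15812 coding genes. In primed it was 2 with LADs less than 50 kb apart joined (also when LADs under 100 kb were then left out), against 1. With LADs less than 100 kb apart joined it was 3, and 3 with any overlap (20.8% of all coding genes). Joining can only add cover, at any gene, and no share of all coding genes is given here for the joined lists. The added genes were YTHDF3 and YTHDC2 under joining: YTHDF3 was at 0% in naive and 100% in primed with gaps under 50 kb joined, and both genes were at 100% in both states with gaps under 100 kb joined. Of the 38 other listed genes tied to the pathway, 7 instead of 4 were in naive LADs under either joining and under any overlap. In primed LADs the count was 4 instead of 2 under any overlap. Any overlap held 23.8% of all coding genes in naive and 20.8% in primed. The difference in LAD share of the 1 Mb (naive minus primed) ran over all alternatives from 22 to 53.6 points at YTHDC2, from -37.0 to -11.0 at METTL14 and from -27.0 to -7.50 at YTHDC1, with no change of sign. TRDMT1, an RNA methyltransferase gene among the enzymes of other modifications that is named for this change, turned from -12.9 points of covered share to 2.60 with LADs less than 50 kb apart joined, with or without the filter at 100 kb after it, and to 19.7 with LADs under 100 kb left out; the cause was not tested. Distances to the nearest LAD often rested on single windows: without LADs under 50 kb the order of the states turned at METTL14 (155 kb in naive, 105 kb in primed), YTHDF2 (19760 kb in naive, 19520 kb in primed) and ALKBH5 (4884 kb in naive, 33240 kb in primed). The scattered FTO and WTAP windows vanished without LADs under 50 kb. No paired analysis was possible because there was 1 list per state with no replicate values, and for the same reason no replicate could be left out.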
